A study of Mus musculus with 4 samples.

Results

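The genes described here are 10 genes of the Notch pathway: the receptors Notch1, Notch2 and Notch3, the ligands Jag1, Jag2 and Dll1, the receptor-modifying enzyme Lfng, the coactivator Maml2 and the target genes Hes1 and Hey1. They were chosen by name, as the probes whose symbol in the platform annotation was 1 of these, and each had 1 probe with a value on all arrays, out of 16390 genes with a named probe. The cells were NSCL61, a mouse glioma-initiating line derived from p53-deficient neural stem cells that overexpress an oncogenic HRas, and the labels give C57BL6 as the strain, brain as the tissue and P0 as the stage of origin. Both groups share this background. The Eva1 shRNA group comprised 2 arrays of NSCL61 cells carrying a short hairpin RNA against Eva1, a cell adhesion gene named Mpzl2 in current mouse nomenclature. The control group comprised 2 arrays of NSCL61, labelled by the line's name alone, while the series title speaks of a control hairpin. Transfected cells were selected with hygromycin, for which the labels' protocols give 2 weeks in one place and 1 week in another, and they do not say whether the hairpin cells were a clone or a pool. The labels name no separate cultures behind the arrays of a group, so the p-values rest on a spread between samples that may be technical. The question put to these genes is whether they differ between cells with the Eva1 hairpin and controls. The series is concerned with the proliferation of glioma-initiating cells. With these arrays, effects of lower Eva1 and other effects of carrying the hairpin cannot be told apart.

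Notch receptors sit in the cell membrane and are switched on by the Delta and Jagged ligands on neighbouring cells. Ligand binding lets ADAM proteases and gamma-secretase cut the receptor, and the freed intracellular part enters the nucleus, where it joins the DNA-binding protein Rbpj and a Mastermind coactivator to turn on genes such as those of the HES and HEY repressor families. In the developing brain the pathway keeps neural stem cells from differentiating, since HES and HEY proteins repress proneural genes. Messenger RNA levels of these genes do not measure how much receptor is cut.

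Each array was a 1-colour chip, and values are given as the deposited intensity, scaled by the authors to an array median near 25, or as log2 of that intensity after quantile normalization. Changes are Eva1 shRNA minus control on the log2 scale, tested with limma over 13765 genes, and a gene was called at an adjusted p under 0.05. The targeted gene was lower on both hairpin arrays: Mpzl2 had intensities of 8.2 and 6.21 on the Eva1 shRNA arrays, against 55.0 and 54.4 on the control arrays, a log2 change of -3.12, or -1.71 with 16 intensity units added before log2 to damp the changes of dim probes. Of the neural stem cell markers, Nes had intensities of 435 and 430 on the Eva1 shRNA arrays and 532 and 537 on the control arrays, and Vim had 26100 and 20300 on the Eva1 shRNA arrays and 16400 and 15300 on the control arrays. Of the 4 such markers tested, Fabp7 fell (log2 change -1.15, limma adjusted p = 0.00521), while Nes (-0.47), Msi1 (-0.24) and Vim (0.33) did not pass. Sox2 had no named probe. Prom1 was blank on 1 control array and was not tested, with 3.25 on the other control array and 11.8 and 9.76 on the Eva1 shRNA arrays. Over all genes 12.5% were called higher and 13.5% lower, and with the authors' scaling in place of quantile normalization the share of calls that were higher went up to 67.7%, against 48.1%. That scaling put the median change of all genes at 0.175, against -0.014, so the changes of all members stood higher under it.

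Of the 10 members, 3 fell in the Eva1 shRNA cells and 0 rose, while 7 did not pass. The 3 were the target gene Hey1 and the ligands Jag1 and Dll1, and each was called under all 13 alternative analyses, among them the omission of each array in turn. In such bulk samples, fewer cells that express a gene and less RNA per cell cannot be told apart. A share of 30% lower stands beside 13.5% of all genes tested, and one of 0% higher beside 12.5%. The members, and the lists of other genes below, were chosen with earlier results of these data known. Such shares therefore describe these genes and are no test of them. By position alone, after quantile normalization, 4 members had Eva1 shRNA arrays wholly below the control arrays and 2 wholly above. Of all genes, 34.1% lay below and 32.6% above in this way. In the deposited intensities Notch2 and Lfng lay wholly above as well, and the share of all genes was not computed for those values. The median change of the 10 was 0.06, and that of all genes -0.01. The count of 0 higher came from limma's test. At an unadjusted p under 0.05 Notch1 would have counted as higher and Maml2 as lower.

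**Figure D1:**
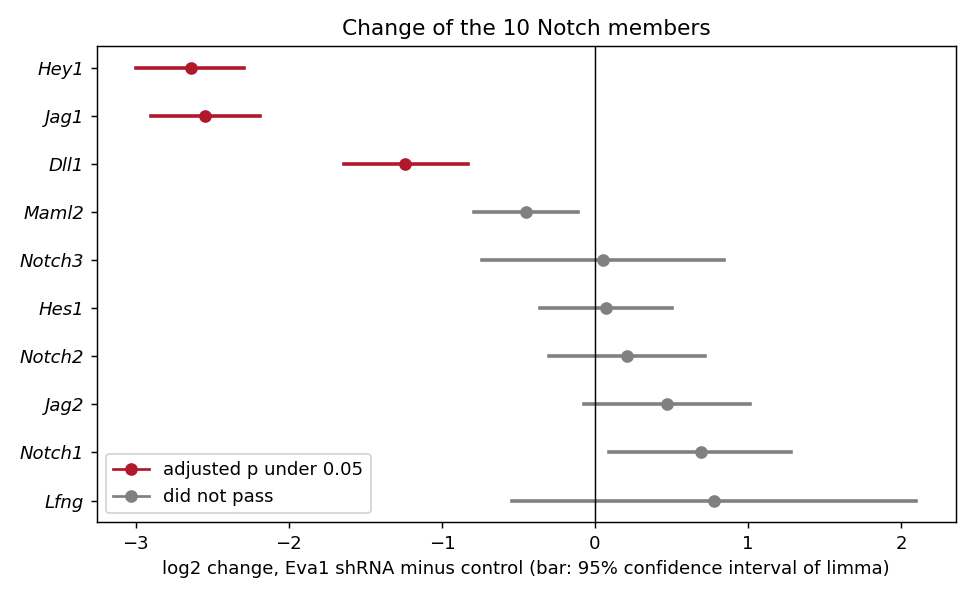
Log2 change of each of the 10 genes, Eva1 shRNA minus control, as a point with its 95% confidence interval from limma, before adjustment for multiple tests. Hey1 (-2.64), Jag1 (-2.55) and Dll1 (-1.24) are the 3 that passed after adjustment, while the intervals of Notch1 and Maml2 also leave out 0.

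Of the ligands, Jag1 and Dll1 fell and Jag2 did not pass the test. Jag1 encodes a Jagged-type membrane ligand that activates Notch receptors on neighbouring cells. Its intensities were 32.5 and 32.4 on the Eva1 shRNA arrays, against 159 and 175 on the control arrays. The groups lay far apart, with the Eva1 shRNA arrays nearly equal to each other. Jag1 averaged 4.92 ± 0.06 in the Eva1 shRNA cells and 7.47 ± 0.08 in the control cells on the log2 scale (SD, n = 2 each), and it was 5.85-fold lower, a log2 change of -2.55 (standard error 0.14, two-sided limma test with adjusted p = 0.00105). Among 13765 genes ordered from the lowest change up, it stood at rank 70.

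Dll1, a Delta-type ligand whose expression marks cells that present Notch signals during neurogenesis, also fell. It had intensities of 34.2 and 36.9 on the Eva1 shRNA arrays, against 77.0 and 67.7 on the control arrays, and the groups did not overlap. Dll1 averaged 5.04 ± 0.14 in the Eva1 shRNA cells and 6.28 ± 0.15 in the control cells on the log2 scale (SD, n = 2 each), a log2 change of -1.24 (standard error 0.16, two-sided limma test with adjusted p = 0.00627). Its 95% interval, -1.64 to -0.83, did not meet that of Jag1, -2.90 to -2.19. The difference between these genes was not tested.

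Jag2, the second Jagged-type ligand, was dim and stood on the other side of zero. It had intensities of 9.01 and 6.43 on the Eva1 shRNA arrays, against 5.26 and 4.32 on the control arrays. All 4 values lay under the array median of 25, and both Eva1 shRNA arrays were above both control arrays. The log2 change was 0.47, with a 95% interval of -0.07 to 1.01, and it did not pass (limma, adjusted p = 0.168). The lowest intensities recorded on the Eva1 shRNA arrays were 1.195 and 1.2162. From its control values, the probe of Jag2 thus had too little room to show a fall as large as that of Jag1. With 16 units added the change of Jag2 was 0.13.

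The promoter windows of Jag1 and Dll1 are shown because these ligands fell together, and that of Lfng because it alone among the members' windows held the longer form of the Rbpj motif. RefSeq windows of 300 bases (250 before to 50 after an annotated start, build GRCm38.p6) were at hand for 8 of the 10 members, with 10 windows in all. Hes1 and Hey1 had none. Capitals mark the motifs CACGCG and CACGTG, which HES and HEY proteins are known to bind, and GTGGGAA, a core of the Rbpj site, each on either strand. The windows are Jag1 at chr2:137116471-137116770 (minus strand), the upstream of 2 annotated Dll1 starts at chr17:15376883-15377182 (minus strand) and Lfng at chr5:140607091-140607390 (plus strand).
Jag1: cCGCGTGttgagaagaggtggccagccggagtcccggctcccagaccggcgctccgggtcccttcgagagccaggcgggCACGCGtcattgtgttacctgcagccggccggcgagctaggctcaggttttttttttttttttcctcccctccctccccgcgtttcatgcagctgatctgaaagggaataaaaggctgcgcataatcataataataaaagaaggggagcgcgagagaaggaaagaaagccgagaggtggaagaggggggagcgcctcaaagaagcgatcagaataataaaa
Dll1: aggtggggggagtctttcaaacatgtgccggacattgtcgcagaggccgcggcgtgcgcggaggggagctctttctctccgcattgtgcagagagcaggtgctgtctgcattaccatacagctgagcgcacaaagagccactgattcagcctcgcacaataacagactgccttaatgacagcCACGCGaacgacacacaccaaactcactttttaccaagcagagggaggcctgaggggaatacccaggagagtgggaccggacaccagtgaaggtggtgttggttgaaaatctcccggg
Lfng: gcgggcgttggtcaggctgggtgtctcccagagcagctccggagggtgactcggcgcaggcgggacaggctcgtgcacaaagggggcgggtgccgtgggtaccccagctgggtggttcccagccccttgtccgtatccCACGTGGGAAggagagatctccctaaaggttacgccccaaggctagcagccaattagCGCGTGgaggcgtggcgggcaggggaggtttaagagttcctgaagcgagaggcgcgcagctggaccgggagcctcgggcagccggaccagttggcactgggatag

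CACGCG was found in 5 of the 10 member windows, in those of Jag1 (at 2 places), Jag2, Dll1, Lfng and Notch2, against 9.27% of all 32851 windows. The member windows were richer in G and C, with a median of 64.7% against 52.7%, and this motif is itself made of G and C but for 1 base, so the higher share cannot be told apart from base composition. GTGGGAA was found in the window of Lfng alone among the members, where it overlaps CACGTG, and in 6.38% of all windows. The shorter core TGGGAA, which GTGGGAA contains, was in 2 member windows and in 25.6% of all windows, and CACGTG was in 1 and in 7.15%. Members with CACGCG included the ligands that fell (Jag1, Dll1) and genes that did not pass the test (Jag2, Lfng, Notch2). The downstream Dll1 window, which is not printed, held none of these motifs. A match is a description of these letters and not a binding site.

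Of the target genes, Hey1 fell and Hes1 did not pass the test. Hey1, a repressor of the hairy and enhancer-of-split-related family, had intensities of 63.0 and 62.2 on the Eva1 shRNA arrays, against 365 and 328 on the control arrays. The groups were well apart and the arrays within each were close. Hey1 averaged 5.88 ± 0.03 in the Eva1 shRNA cells and 8.52 ± 0.09 in the control cells on the log2 scale (SD, n = 2 each). It was 6.25-fold lower, a log2 change of -2.64 (standard error 0.14, two-sided limma test with adjusted p = 0.00105), at rank 60 from the lowest change of 13765 genes.

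Hes1, a repressor and well known direct Notch target in neural stem cells, had similar values in both groups. It had intensities of 215 and 166 on the Eva1 shRNA arrays, against 150 and 169 on the control arrays. The groups overlapped, with 1 Eva1 shRNA array the highest of the 4. The log2 change was 0.07 with a 95% interval of -0.36 to 0.50 (limma, adjusted p = 0.785), so a fall as large as that of Hey1 lay outside the interval, while smaller changes either way lay within it. Its sign turned with 1 array left out, to -0.08 without Eva1 shRNA array 1 and -0.01 without control array 1.

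**Figure D2:**
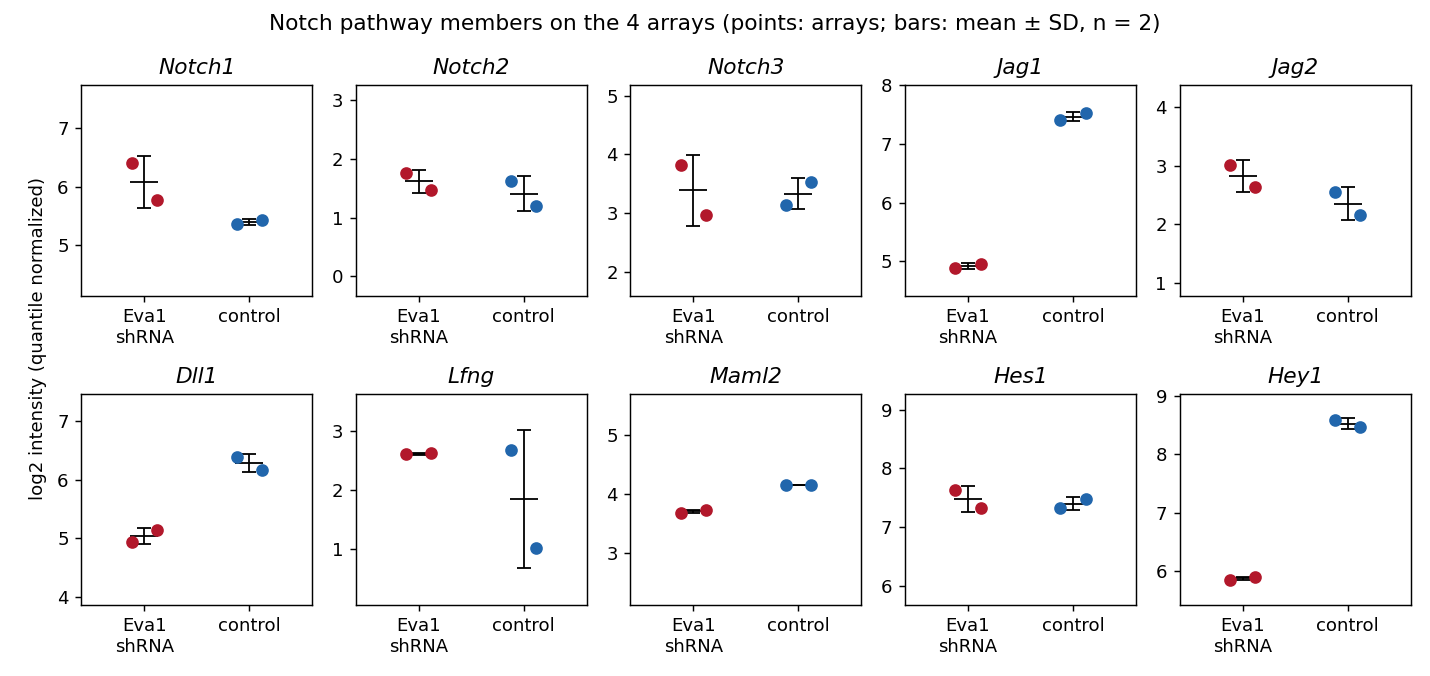
Quantile normalized log2 intensity of each of the 10 genes on the Eva1 shRNA arrays (red, left) and the control arrays (blue, right), with the mean and SD of the 2 arrays of each group; the vertical axes differ between genes. Jag1, Dll1 and Hey1 show groups far apart, Hes1 and Notch3 show groups that overlap, and the control arrays differ widely for Lfng.

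None of the 3 receptors passed the test. Notch1, a receptor known to maintain neural stem cells, had intensities of 92.4 and 56.3 on the Eva1 shRNA arrays, against 37.7 and 41.2 on the control arrays. Both Eva1 shRNA arrays were above both control arrays but differed from each other, with log2 levels of 6.40 and 5.77. Notch1 averaged 6.08 ± 0.45 in the Eva1 shRNA cells and 5.40 ± 0.05 in the control cells on the log2 scale (SD, n = 2 each), a log2 change of 0.69 (standard error 0.24, limma adjusted p = 0.0879). It passed under 4 of 13 alternatives: without the dimmest 25% of probes (adjusted p = 0.0224), with 16 units added (0.0262), with eBayes trend (0.00968) and without Eva1 shRNA array 2 (0.0496, at a change of 1.00). Without Eva1 shRNA array 1 the change was 0.37 and did not pass (adjusted p = 0.300).

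Notch2, another receptor of glial progenitors, was near the lower end of the arrays' range. It had intensities of 3.75 and 2.87 on the Eva1 shRNA arrays, against 2.76 and 2.27 on the control arrays. Among probes blank on at least 1 array, 90% of the filled cells lay under 3.79, so the probe of Notch2 lay in the range where cells were often left blank. The log2 change was 0.21 with a 95% interval of -0.30 to 0.72 (limma, adjusted p = 0.481). It was 0.07 without Eva1 shRNA array 1, 0.35 without Eva1 shRNA array 2, 0.42 without control array 1 and 0.01 without control array 2, and 0.03 with 16 units added.

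Notch3, a receptor known from vascular smooth muscle cells and from gliomas, had intensities of 15.7 and 8.2 on the Eva1 shRNA arrays, against 7.8 and 10.9 on the control arrays. After normalization the Eva1 shRNA arrays enclosed both control arrays, and they differed from each other more than the groups did. The log2 change was 0.05 (limma, adjusted p = 0.918), and it was -0.37 without Eva1 shRNA array 1 and -0.14 without control array 1. Markers of smooth muscle cells and pericytes, in which Notch3 is known to act, gave 2 genes higher, 1 lower and 2 that did not pass of 5 tested, with Cnn1 blank on 2 arrays. Their summed intensity was 508 and 402 on the Eva1 shRNA arrays and 74.1 and 84.3 on the control arrays, most of the difference from Acta2, while Tagln and Myh11 stayed under 4 on every array. Over all 29 marker genes tested, 4 rose and 2 fell, beside 12.5% higher and 13.5% lower of all genes. Those that rose were Acta2 (log2 change 6.22, the largest rise of all genes tested), Tubb3 (0.84), Col1a2 (0.76) and Pdgfrb (0.54). The 2 that fell were the pericyte gene Rgs5, with a log2 change of -2.53, and Fabp7, with -1.15. The part of these cell types in the Notch values was not tested.

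Lfng encodes Fringe, a glycosyltransferase that adds sugars to Notch receptors and shifts their preference from Jagged towards Delta ligands. It had intensities of 6.8 and 6.41 on the Eva1 shRNA arrays, against 5.71 and 2.02 on the control arrays. The lowest value was that of 1 control array, and after normalization the groups overlapped. Its log2 change was 0.78 (standard error 0.53, limma adjusted p = 0.324). It was -0.06 without control array 2 and 1.61 without control array 1, where it passed (adjusted p = 0.0183).

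Maml2, a Mastermind coactivator that binds the Notch intracellular part and Rbpj on DNA, had intensities of 14.3 and 13.8 on the Eva1 shRNA arrays, against 15.9 and 17.1 on the control arrays. Both Eva1 shRNA arrays were below both control arrays. Its log2 change was -0.45 with a standard error of 0.13 and did not pass (limma, adjusted p = 0.0617). It passed without the dimmest 25% of probes (adjusted p = 0.0246), and the change was -0.23 with the authors' scaling and -0.22 with 16 units added.

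**Figure D3:**
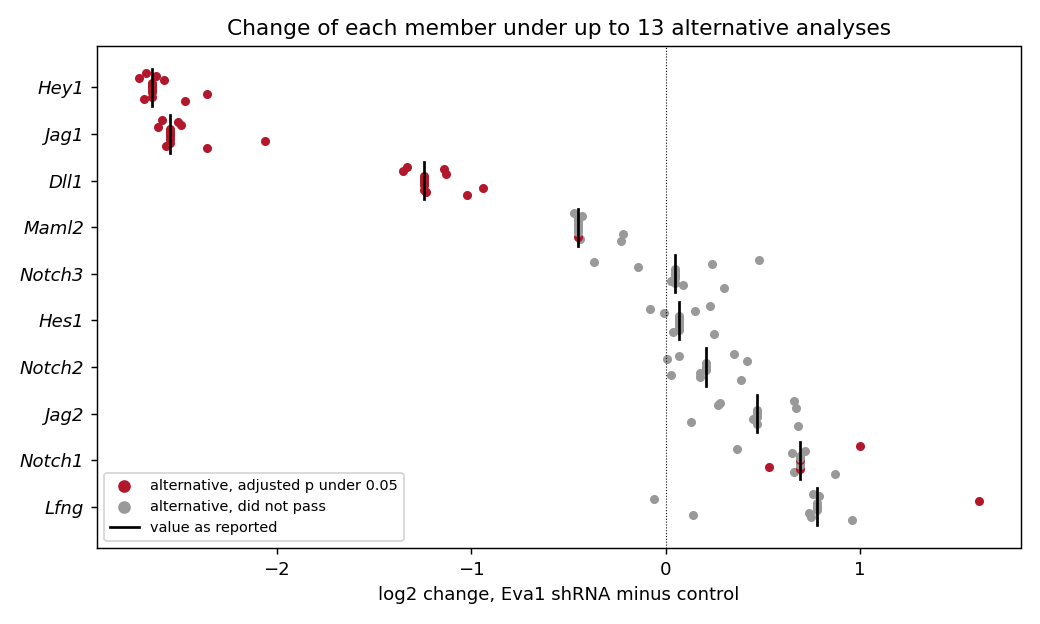
Log2 change of each of the 10 genes, Eva1 shRNA minus control, in the analysis as reported (black bar) and under up to 13 alternatives (points, red where the adjusted p was under 0.05). Hey1, Jag1 and Dll1 stay left of zero and red throughout, while the points of Notch3, Hes1 and Lfng lie on both sides of zero.

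A list of 78 other genes of the pathway was set beside the members. Of these, 70 had a named probe and 61 had values on all 4 arrays, of which 12 rose and 8 fell, while 41 did not pass. These are 19.7% higher and 13.1% lower, beside 12.5% and 13.5% of all genes. The median change of the 61 was -0.09. Of the 20 calls, 3 held under all 13 alternatives, those of Notch4, Mfap2 and Bend6, and each of the other 17 was lost when at least 1 array was left out. Without Eva1 shRNA array 1 there were 2 genes called higher and 2 lower, without Eva1 shRNA array 2 there were 2 and 3, without control array 1 there were 7 and 1, and without control array 2 there were 5 and 4. Filling blank cells with the array's lowest value left 6 higher and 6 lower, with the calls of Dll4, Ccn3, Maml3, Crebbp, Tle3, Dtx3, Dtx4 and Neurl1b lost, and the authors' scaling left 5 lower.

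Notch4, the remaining receptor and one best known from endothelial cells, had intensities of 9.09 and 8.16 on the Eva1 shRNA arrays, against 48.7 and 43.0 on the control arrays. The groups were clearly apart. Its log2 change was -2.62 (standard error 0.15, limma adjusted p = 0.00106), and -1.43 with 16 units added. Of the endothelial markers, Pecam1, Cdh5, Cldn5 and Tek were each blank on at least 1 array and at or under 4.46 elsewhere. Kdr, with 13.8 and 16.8 on the Eva1 shRNA arrays and 15.0 and 9.36 on the control arrays, did not pass (log2 change 0.14).

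Other ligands moved in both directions, with 3 of 6 tested higher and 2 lower, beside 12.5% higher and 13.5% lower of all genes. Mfap2, a microfibril protein that can bind Jagged, had intensities of 112 and 57.7 on the Eva1 shRNA arrays, against 8.5 and 7.15 on the control arrays. It rose by 3.17 on the log2 scale (standard error 0.32, limma adjusted p = 0.00338), or 1.92 with 16 units added. The Delta-like ligand gene Dlk2 (0.95) and the matricellular ligand gene Ccn3 (0.73) also rose. Dner, a Delta-like ligand of neurons, had a log2 change of -1.40, and Dll4, the Delta ligand of endothelial cells, -0.68. With 16 units added these were 0.57 for Dlk2, -0.47 for Dner and -0.17 for Dll4, and the call of Dll4 was then lost, as it was with the authors' scaling. The ligand genes Dll3, Dlk1 and Mfap5 had blank cells and were not tested.

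Of the enzymes that process the receptor, 1 of 5 tested glycosylation genes and 1 of 9 tested protease genes fell. Of all genes 13.5% fell. Mfng, a second Fringe enzyme, had a log2 change of -0.73 (-0.43 with 16 units added), and its call was lost with the authors' scaling. Ncstn, the nicastrin subunit of gamma-secretase, had -0.89 (-0.57 with 16 units added). The ADAM protease genes Adam10 (-0.10) and Adam17 (0.37) did not pass.

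In the nuclear complex, Maml3, a relative of Maml2, had a log2 change of -0.84, a call lost with the authors' scaling, and the acetyltransferase gene Crebbp one of 0.72, or 0.32 with 16 units added. Rbpj, the DNA-binding partner of the receptor, had intensities of 224 and 226 on the Eva1 shRNA arrays, against 126 and 190 on the control arrays, and did not pass (log2 change 0.37). Beside 12.5% higher and 13.5% lower of all genes, 3 of 13 tested corepressors rose and 0 fell. These were Ctbp1 (0.88) and the Rbpj partner gene Spen (0.71), with Tle3 (0.51), a Groucho-type corepressor named after its value was seen, whose call was also lost with median centring and with the replicate block.

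Among 14 tested genes of endocytosis, ubiquitin ligases and inhibitors 5 rose and 2 fell, beside 12.5% higher and 13.5% lower of all genes. Bend6, a nuclear inhibitor of Notch-dependent transcription in neural cells, had intensities of 27.6 and 22.5 on the Eva1 shRNA arrays, against 8.61 and 9.33 on the control arrays. It rose by 1.25 (standard error 0.15, limma adjusted p = 0.00519), or 0.61 with 16 units added. Of the Deltex ubiquitin ligase genes, Dtx4 (0.80), Dtx3 (0.76) and Dtx3l (0.76) rose, and so did Neurl1b (0.88), a ligase that acts on Notch ligands. With 16 units added Dtx3 stood at 0.42 and Neurl1b at 0.19, and the call of Neurl1b was lost. Fbxw7, which marks the active receptor for destruction, had a log2 change of -0.86 (-0.52 with 16 units added) and the endocytic adaptor gene Epn1 one of -0.78.

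Of the other HES and HEY genes 0 of 5 tested passed, beside 12.5% higher and 13.5% lower of all genes. Hes5, a direct target of Notch in neural stem cells, had intensities of 104 and 108 on the Eva1 shRNA arrays, against 91.2 and 89.9 on the control arrays, and a log2 change of 0.03. Hes5 was named after its value was seen. Hes3 had the smallest p of the 5, at a change of 0.49 (limma, adjusted p = 0.0857) and intensities under 3 on every array, with a change of 0.06 once 16 units were added and 0.33 with median centring. Heyl had a value on 1 array only. Of the proneural genes that HES proteins repress, Neurog1 alone was measured on all arrays, with a change of 0.48 that did not pass (limma, adjusted p = 0.0576). It passed under 4 of 13 alternatives: with the authors' scaling (adjusted p = 0.0216, at a change of 0.68), with eBayes trend (0.0288), with 16 units added (0.0216) and without the dimmest 25% of probes (0.0207).

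**Figure D4:**
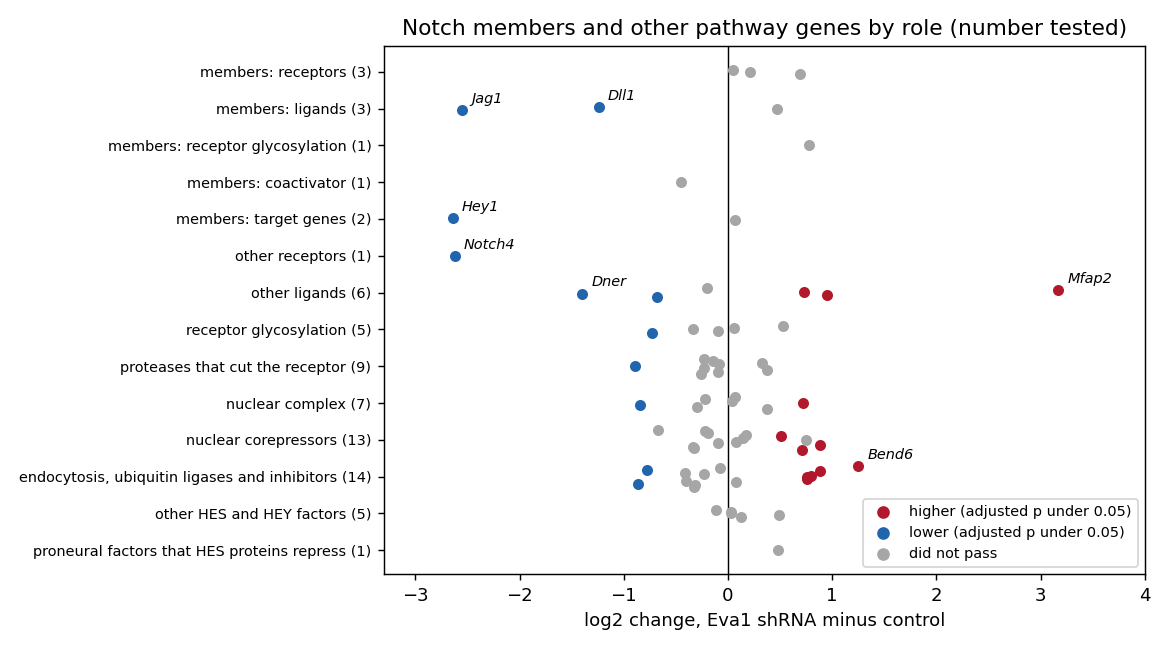
Log2 change, Eva1 shRNA minus control, of the 10 members and of the 61 other pathway genes tested, in rows by role; each point is a gene, red or blue where it passed at an adjusted p under 0.05 in limma. Jag1, Dll1, Hey1, Notch4 and Dner lie furthest to the left and Mfap2 furthest to the right, while the points of the other HES and HEY genes lie between -0.11 and 0.49.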

How the data were processed

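Total RNA from 4 samples was amplified, labelled with Cy5 and put on a 3D-Gene mouse chip, as the labels state. The deposited intensity values are linear and were scaled by the authors to a median near 25 on each array, as the values show; how the chips were scanned and corrected for background, and when cells were left blank, are steps not given in the sources used here. Of 23473 probes, 16631 had 1 symbol in the platform annotation, 0 several and 6842 none; 3947 symbols were updated through RefSeq names (GRCm38.p6), and each member was matched under its annotated symbol. Of all probes, 19199 had a value on all 4 arrays, and 20662 to 21842 had one on each array. Precision is limited by having 2 arrays a group.

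Log2 values of these 19199 probes differed by 0.274 between array medians and were therefore quantile normalized. The brightest probe stood for a gene, and 13765 genes were fitted with limma 3.58.1 (R 4.3.3; lmFit and eBayes, two-sided, Benjamini-Hochberg over all genes, threshold 0.05). Arrays of a group correlated at 0.993 (Eva1 shRNA) and 0.991 (control) across probes. The members, lists and tests were chosen with earlier results of these data known. Named genes were the members, Mpzl2, pathway genes called with at least a 1.5-fold change and the gene with the smallest p in each role group; Adam10, Adam17, Rbpj, Hes5, Tle3 and the cell type markers were named after their values were seen. Motifs were searched on both strands in RefSeq promoter windows. Python 3.11.15 with matplotlib 3.10.9 made the figures. The alternatives, 13 in all, changed 1 choice each: the scaling, the filter on dim probes, an offset of 16, blank cells, the replicate block, eBayes, the probe rule and the omission of each array.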

Additional observations from a re-analysis of the deposited data

How the results depend on the processing

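The counts of called members held as follows. The 3 members called lower stayed 3 under 12 of 13 alternatives and were 4 without the dimmest 25% of probes, where Maml2 joined them. The members called higher were 1 rather than 0 with eBayes trend, with 16 units added and without the dimmest 25% of probes (Notch1 in each), and 0 to 1 with an array left out. Leaving out an array gave 2 to 7 other pathway genes higher and 1 to 4 lower, and over all genes 510 to 1190 higher and 696 to 1212 lower, against 1720 and 1856 as reported. With the authors' scaling 2714 genes were called higher and 5 other pathway genes lower, and with blank cells filled 6 other pathway genes were higher. Among members and named pathway genes, signs turned for Notch3, Hes1 and Lfng, which did not pass, when an array was left out: Notch3 ranged from -0.37 to 0.48, Hes1 from -0.08 to 0.23 and Lfng from -0.06 to 1.61. Mpzl2 was called under all 13, at -3.27 to -1.71. The labels number the arrays of each group without saying whether arrays of the same number were paired. Deviations from the group means correlated at -0.00926 between arrays of the same number. With 2 arrays a group this cannot settle whether they were handled as pairs. With the replicate block 1471 genes were higher and 1631 lower, 3 members were lower and 0 higher, and 11 other pathway genes were higher and 8 lower. Notch2, Jag2 and Lfng were among the dimmest 25% of probes and have no value under that filter. For these dim probes and for Notch3 the signal over background limits what can be seen.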
